A study of Arabidopsis thaliana with 3 samples.

Results

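The homeobox genes described here are the 102 loci, of 25665 on the array, whose probe description contains the word homeobox. Their transcript levels were compared between tdt-1 mutant and wild-type seedlings of Arabidopsis thaliana. Whole seedlings were 3 days old, grown on MS agar in constant light, and their total RNA was amplified and labelled with Cy5 or Cy3. Each of 3 two-colour Agilent arrays, biological replicates per the series design, was hybridised with RNA of both genotypes, tdt-1 being labelled with Cy5 on replicates 1 and 2 and with Cy3 on replicate 3. Neither the mutated gene nor the accession of the wild type is given in the labels. The name TDT points to more than 1 gene in the reference table. It is a synonym of DCP2, a subunit of the mRNA decapping enzyme, whose probe stood at −0.62 ± 0.29 on the log2 scale, and the symbol of AT5G47560, at −0.19 ± 0.47. Neither passed the test (limma adjusted p = 0.063 and 0.545), and with the lesion unknown these values check nothing about the genotype.

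A homeodomain is a DNA-binding fold of helices, and the plant proteins that carry it are sorted by the domains beside it. HD-Zip proteins add a leucine zipper through which they bind DNA as dimers: class I members are known from responses to water deficit and abscisic acid, class II from shade and auxin, class III from the upper leaf face and vascular tissue, and class IV from the epidermis. WUSCHEL-type (WOX) proteins act in stem cell niches and early embryos. KNOX and BEL proteins form dimers with each other and act in the shoot meristem and in organ shape, and zinc finger homeodomain (ZF-HD) proteins, a plant group, pair through a zinc finger domain at their N-terminal end.

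Ratios below are log2 values, tdt-1 over wild type, as mean ± SD of 3 arrays, and levels are normalised log2 signals of each genotype's own channel. Each ratio was tested against 0 with limma, with p-values adjusted over all loci tested and a threshold of 0.05. Every homeobox locus had 1 probe, none of these spots was saturated, and 85 of the 102 were tested because at least 1 genotype was well above background on every array. Those 85 passed a filter that a gene can pass through 1 genotype alone, so they are not all the members. Of them, 75 were above background in both genotypes on all arrays.

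Among the 85 homeobox genes tested, tdt-1 was higher for 7 and lower for 6. These were 8.24% and 7.06% of the homeobox genes, and the same test called 7.36% of all 20484 loci higher and 5.97% lower. Either way it called 15.3% of the homeobox genes, against 13.3% of all loci. These shares lay near those of all loci. The higher genes were HB-12, HAT22, FWA, KNAT5, WOX13, ZHD10 and ZHD11. The lower genes were ATML1, KNAT1, ZHD5, ZHD7, ZHD8 and RLT2. The median ratio of the homeobox genes was 0.01, against 0.02 over all loci, and the median size of the ratio was 0.30, against 0.25. At least 2-fold differences of the mean ratio were found upward in 6 homeobox genes (7.06%, against 2.95% of all loci) and downward in 2 (2.35%, against 2.88%). At an unadjusted p under 0.05, 36 homeobox genes passed (42.4%, against 35.1% of all loci).

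The 13 calls depended on the arrays used. Without replicate 1 and without replicate 2, 0 homeobox genes passed limma's adjusted threshold (0.962% and 0.542% of all loci did), with 19 and 18 of them at an unadjusted p under 0.05. Without replicate 3 there were 33 higher and 20 lower, against 34.2% and 26.7% of all loci. With replicates 1 and 2 averaged, with median centring in place of loess, or with a robust trended variance, limma called 0 homeobox genes, with 18, 17 and 37 at an unadjusted p under 0.05, and 0.21%, 0.00488% and 0% of all loci were called. The sign of each of the 13 genes was kept under every setting in which it was tested. Each had the same sign on every array, so leaving out, averaging or weighting arrays could not have turned it.

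**Figure D1:**
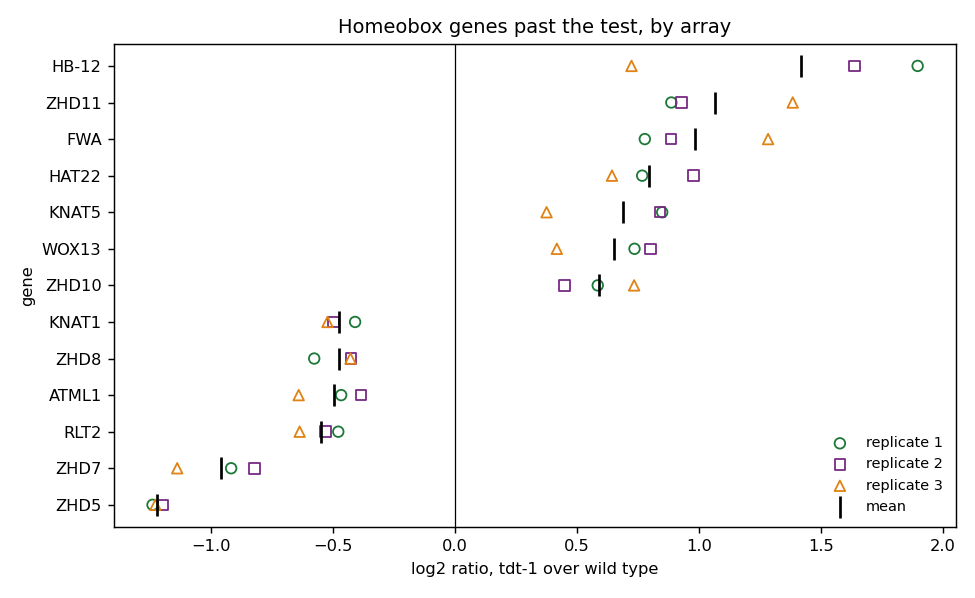
Log2 ratio of tdt-1 over wild type (horizontal axis) on each of the 3 arrays, drawn as open symbols, for the 13 homeobox genes past the test, with the mean as a bar. The 3 arrays of ZHD5 lie between −1.24 and −1.20, while those of HB-12 spread between 0.72 and 1.90.

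Replicate 3 stood apart from replicates 1 and 2. Across the 85 homeobox genes, as a description over genes that share arrays, Pearson's r of the ratios was 0.96 between replicates 1 and 2, 0.53 between 1 and 3, and 0.58 between 2 and 3, and over all loci the same values were 0.94, 0.53 and 0.57. Replicate 3 differed in dye orientation, array layout, scan day, scan resolution and software version at once, and these cannot be told apart. A term for it was past the adjusted threshold in 45.9% of the homeobox genes and in 44.6% of all loci. The ratio had the same sign on all 3 arrays in 54 homeobox genes (63.5%, against 58.9% of all loci).

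**Figure D2:**
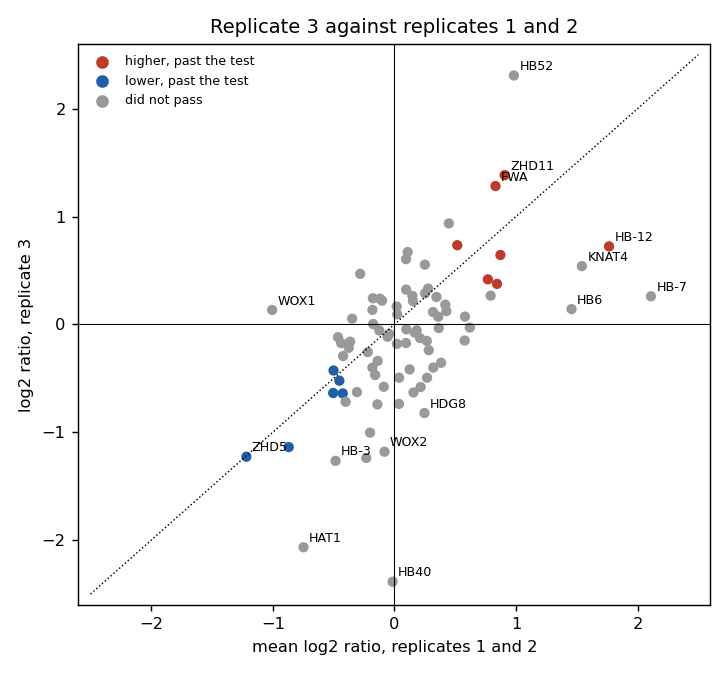
Log2 ratio on replicate 3 (vertical axis) against the mean log2 ratio of replicates 1 and 2 (horizontal axis) for the 85 homeobox genes tested, with the dotted line marking equal values. HB-7 and HB6 lie far right of the line with ratios of 0.26 and 0.14 on replicate 3, and HB40 lies at −2.39 on replicate 3 with a mean near 0 on the other arrays.

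Whole seedlings hold many tissues, and in bulk RNA fewer cells of a type and less RNA per cell cannot be told apart. Of 6 green tissue markers (RBCS1A, RCA, LHCB2.1, LHCB3, PSAD-2 and GAPB), none passed the limma test and 4 had an unadjusted p under 0.05. Of all loci, 35.1% had an unadjusted p under 0.05, the share that belongs beside each marker count here. RBCS1A and RCA were saturated in both genotypes on 2 arrays and in wild type on all 3, so they are not read further. The other 4 were below 0 on every array, with medians of −0.81, −0.85 and −2.43 on replicates 1, 2 and 3. Of 4 seed storage and oil body genes tested, none passed, with 1 at an unadjusted p under 0.05. Their medians were 0.71, 0.12 and 2.20 on replicates 1, 2 and 3. Wild type was well above background on 2 arrays for CRA1 and on 1 for CRC. Both entered the test through tdt-1, so their differences helped to select them and raise these medians. Of 6 root markers, 2 had an unadjusted p under 0.05, in opposite directions, and 1 passed the test, as did 13.3% of all loci. CASP1 of the endodermal Casparian strip was higher (0.69 ± 0.14, adjusted p = 0.030), while EIR1 was below 0 on every array (−0.52 ± 0.27, adjusted p = 0.079). COBL9, SCR and EXP7 had means of −0.58, −0.36 and −0.01, and MYB36 had 0.19. The median of the 6 was −0.18, with −0.37, −0.44 and 0.17 on replicates 1, 2 and 3. The part of these marker shifts in the homeobox results was not tested.

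Among 13 ZF-HD genes tested 2 were higher and 3 lower, the most calls of any class here, where the test called 7.36% of all loci higher and 5.97% lower. No test set the class against other loci. Across the 13 genes, r of the ratios was 0.97, 0.90 and 0.93 for replicates 1 and 2, 1 and 3, and 2 and 3. A call needs ratios that agree between arrays, so these values are not separate from the calls. The loci outside the named classes had 0.95, 0.83 and 0.83. ZHD5, also called HB33 and known to bind the small inhibitor MIF1 and to affect leaf growth, had levels of 8.35, 8.26 and 9.42 in tdt-1 seedlings, against 9.59, 9.45 and 10.64 in wild type. Every tdt-1 level lay below every wild-type level, and the ratio was nearly the same on the 3 arrays, at −1.24, −1.20 and −1.23. ZHD5 was 2.33-fold lower in tdt-1 (−1.22 ± 0.02, adjusted p = 0.015), the lowest mean ratio of any homeobox gene tested.

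ZHD7 followed in the same direction, with levels of 8.28, 8.28 and 8.34 in tdt-1, against 9.20, 9.10 and 9.47 in wild type. The genotypes did not overlap, and ZHD7 was 1.94-fold lower (−0.96 ± 0.16, adjusted p = 0.021). ZHD8 had levels of 10.46, 10.35 and 10.83 in tdt-1 and 11.04, 10.78 and 11.25 in wild type. These ranges overlapped, since the tdt-1 level on replicate 3 was above the wild-type level on replicate 2, but on each array tdt-1 was the lower of the 2 channels (−0.48 ± 0.09, adjusted p = 0.045).

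On the other side of the family stood ZHD11, named ZFHD1 as a drought- and salt-induced factor that binds the ERD1 promoter. It had levels of 9.07, 9.25 and 9.59 in tdt-1 and 8.18, 8.33 and 8.21 in wild type. Each tdt-1 level exceeded each wild-type level, by 2.09-fold on average (1.07 ± 0.28, adjusted p = 0.026), and the ratio on replicate 3 was the highest at 1.38. ZHD10, which acts with the light-signalling protein TZP in hypocotyl growth, had levels of 10.52, 10.49 and 10.26 in tdt-1, against 9.93, 10.04 and 9.52 in wild type (0.59 ± 0.14, adjusted p = 0.038). Its genotypes did not overlap either.

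The remaining 8 ZF-HD genes tested lay between −0.20 ± 0.12 for ZHD9 and 0.35 ± 0.18 for ZHD3 and did not pass. ZHD3 (adjusted p = 0.104) and ZHD14 (0.32 ± 0.09, adjusted p = 0.092) were above 0 on every array. MIF1, a mini zinc finger protein that lacks the homeodomain and blocks ZF-HD dimers, is listed by the same word in its description and had ratios of −0.30, −0.51 and −0.72 (adjusted p = 0.064).

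**Figure D3:**
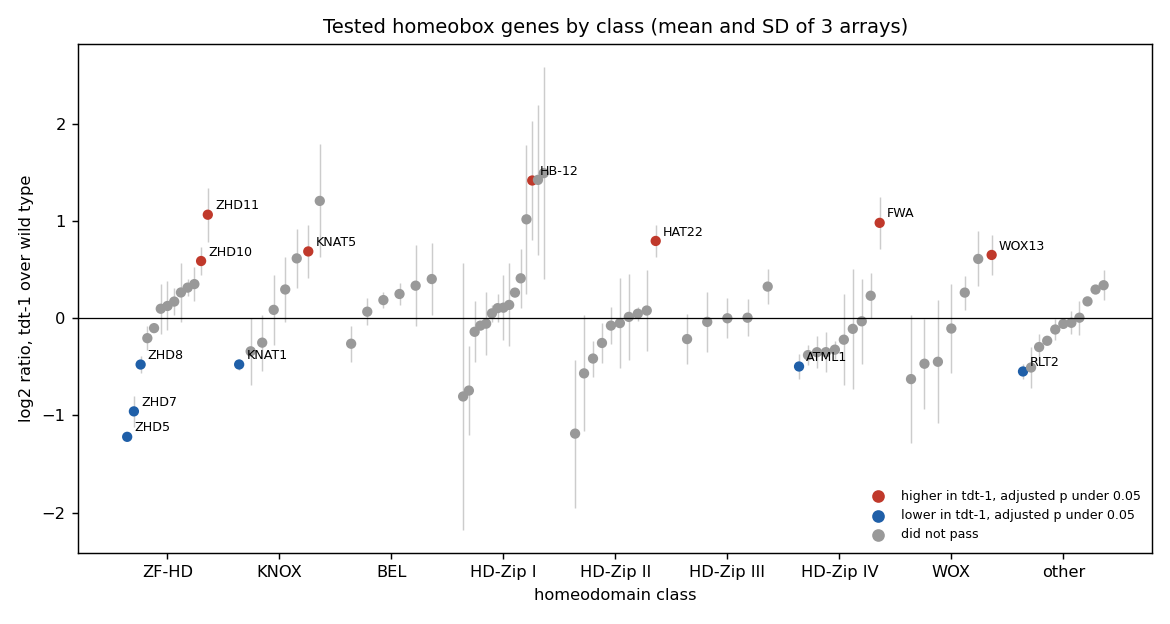
Mean log2 ratio of tdt-1 over wild type (vertical axis) with SD bars over 3 arrays for the 85 homeobox genes tested, by class and in order of ratio within each class. ZF-HD genes past the test lie on both sides of 0, and none of the HD-Zip III or BEL genes is coloured as past the test.

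Class I HD-Zip genes held the highest mean ratios of all homeobox genes, but they spread widely between arrays. Of 15 tested 1 was higher and none lower, where 13.3% of all loci were called either way. The class median was 0.11, with array medians of 0.23, 0.22 and −0.06. HB-12 and HB-7 are close relatives, both induced by abscisic acid and water deficit. HB-12 had levels of 12.84, 12.59 and 11.21 in tdt-1, against 10.95, 10.96 and 10.49 in wild type. The genotypes did not overlap, and HB-12 was 2.67-fold higher in tdt-1 (1.42 ± 0.62, adjusted p = 0.042), with the ratio on replicate 3 the smallest, at 0.72.

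HB-7 had levels of 12.80, 12.36 and 11.39 in tdt-1 and 10.46, 10.48 and 11.13 in wild type. Its ratios were 2.34 and 1.88 on replicates 1 and 2 and 0.26 on replicate 3, so that its mean of 1.49 ± 1.09 did not pass (adjusted p = 0.097). HB6, a regulator of the abscisic acid response, showed the same arrangement, with 1.58, 1.34 and 0.14 (adjusted p = 0.106). On replicates 1 and 2 these genes were among the highest homeobox ratios, and on replicate 3 they were close to 0.

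HB52, which acts in ethylene-dependent root growth, ran the other way between arrays, with ratios of 0.88, 1.09 and 2.31. Its levels were 9.67, 10.02 and 10.73 in tdt-1 and 8.79, 8.94 and 8.42 in wild type. The genotypes did not overlap, but the spread left the mean of 1.42 ± 0.77 outside the threshold (adjusted p = 0.060). Below 0 stood HB-3, with −0.41, −0.56 and −1.27 (adjusted p = 0.082), and HB40, one of a trio of genes that hold axillary buds dormant. HB40 had ratios of 0.06, −0.09 and −2.39 and was above background in tdt-1 on 1 array (adjusted p = 0.356). HB5 and HB-1 had ratios of 0.26 ± 0.04 and 0.41 ± 0.30 (adjusted p = 0.111 and 0.135). The other 7 class I genes tested, namely HB13, HB16, HB20, HB22, HB23, HB53 and LMI1, had means between −0.14 and 0.14, and HB21 was not tested.

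Of 10 class II HD-Zip genes, 1 was higher and none lower, where 13.3% of all loci were called either way, and the median was −0.06. HAT22, also known as ABIG1, a gene of the growth response to abscisic acid, had levels of 10.10, 10.14 and 9.90 in tdt-1, against 9.33, 9.17 and 9.25 in wild type. The levels of each genotype lay close together and did not overlap, and HAT22 was 1.74-fold higher (0.80 ± 0.17, adjusted p = 0.027). Its closest relative, HAT9, had a mean of −0.25 ± 0.21 (adjusted p = 0.209). HAT9 minus HAT22 was −1.12, −0.99 and −1.04 on the 3 arrays, a steady gap between the 2 ratios that was not tested.

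HAT1 and HAT2, which are tied to auxin and brassinosteroid responses, both had means below 0 without passing. HAT1 had levels of 9.27, 9.18 and 8.01 in tdt-1, against 10.01, 9.93 and 10.07 in wild type. The genotypes did not overlap, but the ratio on replicate 3, −2.07, was far below the −0.74 and −0.76 of the other arrays (−1.19 ± 0.76, adjusted p = 0.080). HAT2 had −0.37, −0.09 and −1.24 (adjusted p = 0.195). HB-2, the shade marker of the class, stood at −0.08 ± 0.19 (adjusted p = 0.665), and HAT3 and HB4, which act with it in shade and leaf polarity, at 0.08 ± 0.42 and 0.01 ± 0.44. HB18 stood at −0.41 ± 0.19 (adjusted p = 0.082), and HB17 and HAT14 at −0.05 ± 0.47 and 0.05 ± 0.07. HB18 entered the test through wild type, so its difference helped to select it, and HB17 entered through tdt-1.

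None of the 5 class III HD-Zip genes passed the limma test, and 1 had an unadjusted p under 0.05. That gene was HB-8, a marker of procambium, with levels of 10.40, 10.29 and 10.21 in tdt-1, against 10.01, 9.83 and 10.09 in wild type (0.33 ± 0.18, adjusted p = 0.121). PHB, PHV and REV, which specify the upper leaf face, had ratios of 0.01 ± 0.19, −0.21 ± 0.26 and −0.04 ± 0.31, and CNA had 0.00 ± 0.21. PHB, CNA and PHV were below 0 on replicates 1 and 2 and above 0 on replicate 3. LITTLE ZIPPER proteins form inactive dimers with class III proteins, and of the 3 genes tested none passed. All 3 had an unadjusted p under 0.05, as did 35.1% of all loci. ZPR1, ZPR2 and ZPR3 were above 0 on every array, with means of 0.49 ± 0.30, 0.63 ± 0.29 and 0.40 ± 0.20 (adjusted p = 0.097, 0.061 and 0.091). Wild type was well above background on 1 array for ZPR2 and on 2 for ZPR3. Both entered the test through tdt-1, so their differences helped to select them.

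Class IV, the epidermal class, had 1 gene higher and 1 lower among 10 tested, where 13.3% of all loci were called either way. Of the 10 means, 8 lay below 0, as did 47.1% of the means of all loci. HDG5 and HDG7, among the 8, entered the test through wild type, so their differences helped to select them. HDG8, also among the 8, entered through tdt-1 and was above 0 on replicates 1 and 2. ATML1, which with PDF2 specifies the epidermis, had levels of 11.39, 11.45 and 11.21 in tdt-1, against 11.86, 11.84 and 11.85 in wild type. The wild-type levels were almost equal and all above those of tdt-1, and ATML1 was 1.41-fold lower (−0.50 ± 0.13, adjusted p = 0.048). It was the called gene nearest the threshold together with KNAT5, and with median centring its ratio was −0.18. PDF2 had ratios of −0.53, −0.40 and −0.12 (adjusted p = 0.122).

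HDG2, which promotes stomatal fate, stood at −0.38 ± 0.10 (adjusted p = 0.069), GL2 of trichomes and root hair patterning at −0.35 ± 0.16 (adjusted p = 0.100), and HDG12 at −0.32 ± 0.09 (adjusted p = 0.088). With ATML1 and PDF2 these were the 5 class IV genes below 0 on all arrays. The class median was −0.27, with array medians of −0.29, −0.36 and −0.20, against 0.02 over all loci. HDG5 and HDG7, which entered through wild type, and FWA and HDG8, which entered through tdt-1, are part of these medians. HDG1 had a mean of 0.23 ± 0.23, HDG5 of −0.22 ± 0.47 and HDG7 of −0.03 ± 0.44.

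FWA was the class IV gene higher in tdt-1. It is known as an imprinted endosperm gene that DNA methylation keeps silent in vegetative tissue. Its levels were 6.42, 6.89 and 7.56 in tdt-1, against 5.64, 6.01 and 6.28 in wild type. The genotypes did not overlap, although both were dim, and wild type was well above background on 1 of the 3 arrays. The ratios were 0.78, 0.89 and 1.28, a mean of 0.98 ± 0.27 (adjusted p = 0.028). FWA entered the test through its tdt-1 signal, so its difference helped to select it, and it was not among the genes tested when both genotypes had to be well above background. With the scanner software's own log ratios the mean was 2.39, still higher in tdt-1. HDG8 changed direction between arrays, with 0.27 and 0.23 on replicates 1 and 2 and −0.82 on replicate 3 (adjusted p = 0.793).

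**Figure D4:**
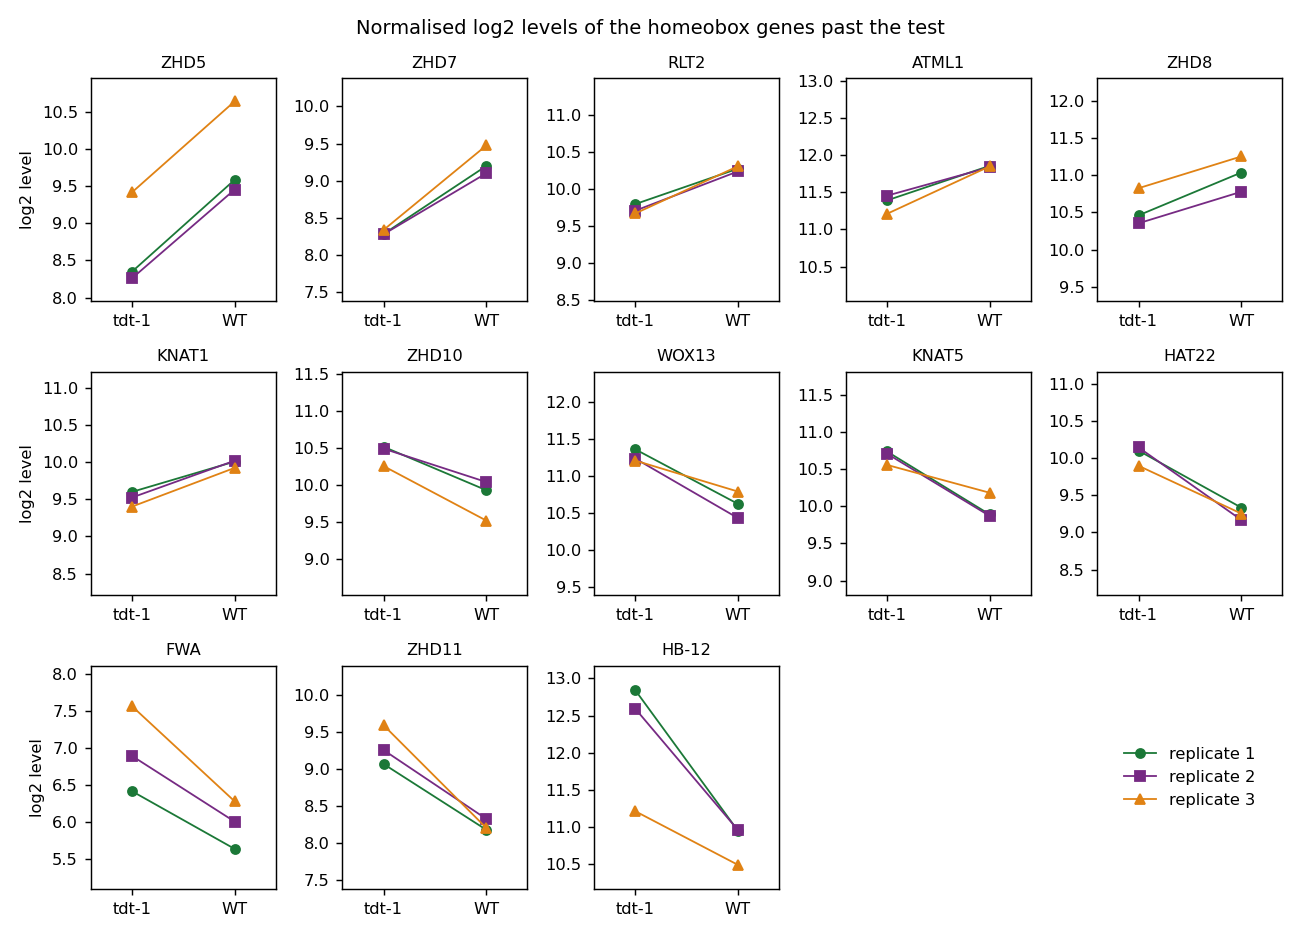
Normalised log2 level (vertical axis, each panel with its own range but the same span) in tdt-1 and wild type on each array for the 13 homeobox genes past the test, with a line joining the channels of 1 array. The lines of ZHD5 run parallel with replicate 3 higher in both genotypes, and the line of replicate 3 is the flattest for HB-12.

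Among KNOX genes 1 was higher and 1 lower of 8 tested, where 13.3% of all loci were called either way, and the median was 0.19. KNAT1, also called BREVIPEDICELLUS, a class I KNOX gene of the shoot meristem and stem, had levels of 9.60, 9.52 and 9.40 in tdt-1, against 10.01, 10.02 and 9.92 in wild type. Every tdt-1 level was below every wild-type level, and KNAT1 was 1.39-fold lower (−0.48 ± 0.06, adjusted p = 0.042). STM, which maintains the meristem, had ratios of 0.20, 0.01 and 0.67 (adjusted p = 0.258), and STM minus KNAT1 was 0.77 ± 0.37, a difference that was not tested. KNAT2 and KNAT6, the remaining class I genes, had means of −0.34 ± 0.35 and −0.25 ± 0.29 (adjusted p = 0.217 and 0.278).

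The class II KNOX genes KNAT3, KNAT4 and KNAT5 act in organ differentiation and were above 0 on every array. KNAT5 had levels of 10.74, 10.71 and 10.56 in tdt-1, against 9.89, 9.87 and 10.18 in wild type, without overlap (0.69 ± 0.27, adjusted p = 0.048). KNAT4 had larger ratios of 1.61, 1.47 and 0.54 and lay just outside the threshold (1.21 ± 0.58, adjusted p = 0.051). KNAT3 had 0.84, 0.74 and 0.27 (adjusted p = 0.067). In all 3 genes replicate 3 gave the smallest ratio. KNAT7, also of class II and known from secondary cell walls, had 0.50, −0.17 and −0.08.

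None of the 6 BEL genes tested passed the limma test, against 13.3% of all loci. None reached an unadjusted p under 0.05 either, against 35.1%. Of the 5 means above 0, BLH4, a leaf margin gene that works with BLH2, had the highest, at 0.63, 0.61 and −0.03 (adjusted p = 0.180). BLH2 stood at 0.19 ± 0.08 and ATH1, a light-regulated partner of KNOX proteins in the shoot, at 0.34 ± 0.42. BEL1, first described in ovules, had 0.25 ± 0.12, BLH1 had 0.07 ± 0.14 and BLH10 was the lowest at −0.26 ± 0.19 (adjusted p = 0.181).

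OVATE family proteins bind KNOX and BEL proteins and hold some of them outside the nucleus. Of 14 such genes tested 1 was higher and 1 lower, where 13.3% of all loci were called either way, and the median was −0.05. OFP16 had levels of 9.16, 9.37 and 7.37 in tdt-1, against 11.25, 11.46 and 10.63 in wild type. The genotypes were far apart, and OFP16 was 5.59-fold lower (−2.48 ± 0.68, adjusted p = 0.022). The call was lost with median centring, with the robust trended variance and with replicates 1 and 2 averaged (adjusted p = 0.167, 0.064 and 0.065). OFP12 was 1.43-fold higher, with ratios of 0.55, 0.47 and 0.53 (adjusted p = 0.036), and it lost the call without background correction (adjusted p = 0.063, in a range of 1.0e-04 to 0.277 over the settings). OFP17 and OFP7 stood at 0.33 ± 0.23 and 0.26 ± 0.17 (adjusted p = 0.150 and 0.178). Among 9 boundary, leaf polarity and KNOX-repressing genes tested none passed, and 3 had an unadjusted p under 0.05, as did 35.1% of all loci. AS1, which represses KNOX genes in leaves, stood at 0.37 ± 0.14 (adjusted p = 0.086), and BOP1, a boundary gene, at 0.38, 0.32 and 0.34 (adjusted p = 0.069).

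Of 13 WOX genes 7 were tested, with 1 higher and none lower, where 13.3% of all loci were called either way. WOX13, of the oldest WOX clade and broadly expressed, had levels of 11.36, 11.23 and 11.21 in tdt-1, against 10.62, 10.43 and 10.79 in wild type. The genotypes did not overlap, and WOX13 was 1.57-fold higher (0.65 ± 0.21, adjusted p = 0.041). WOX5, which maintains the root stem cell niche, had 0.42, 0.47 and 0.94 and lay outside the threshold (adjusted p = 0.062). WOX1, which acts in leaf blade outgrowth, had −1.03 and −0.98 on replicates 1 and 2 and 0.13 on replicate 3 (adjusted p = 0.192).

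WOX7, the near relative of WOX5, was not well above background in tdt-1 on any array and entered the test through wild type. Its ratios were −0.24, −0.16 and −1.0 (adjusted p = 0.188). With tdt-1 levels raised where needed to the lowest level flagged above background, the mean stood 1.37-fold lower, which is no firm bound. Most of that came from replicate 3, without which the mean was −0.20. WOX2, an embryo gene, had −0.08, −0.08 and −1.18, WOX12 had 0.12, 0.19 and −0.63, and WOX4 of the cambium 0.31, 0.41 and 0.07. WOX3, WOX6, WOX8, WOX10, WOX11 and WOX14 were too dim to be tested. The receptor kinase CLV1, which limits the stem cell pool that WUSCHEL promotes, was lower in tdt-1. Its levels were 9.54, 9.80 and 10.14 in tdt-1 and 10.68, 10.88 and 11.02 in wild type, without overlap (−1.03 ± 0.14, adjusted p = 0.019). The call was lost under the same 3 settings (adjusted p = 0.191, 0.064 and 0.115) and without replicate 1 or replicate 2 (0.089 and 0.108). The other 5 CLAVATA and stem cell genes tested did not pass, with CLV2 at −0.30 ± 0.17 (adjusted p = 0.136) and AGO10 at 0.30 ± 0.15 (adjusted p = 0.124).

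Outside these classes, 11 of 14 homeobox loci were tested and RLT2 was lower, where 5.97% of all loci were called lower. RLT2 and RLT1 are partners of ISWI chromatin remodellers that delay the switch to flowering. RLT2 had levels of 9.80, 9.71 and 9.67 in tdt-1, against 10.27, 10.24 and 10.31 in wild type. Levels within a genotype were tight and the genotypes did not overlap (−0.55 ± 0.08, adjusted p = 0.036). RLT1 stood at −0.06 ± 0.03 (adjusted p = 0.654), and RLT1 minus RLT2 was 0.42, 0.50 and 0.55 on the 3 arrays, a gap that was not tested. The highest of these loci was AT1G61200 at 0.34 ± 0.15 (adjusted p = 0.100), and LD, which promotes flowering, had −0.12 ± 0.11. DA1, DGS1, MIF1 and MIF2 carry the word in their description but are not homeodomain proteins. None of them was called, so leaving them out, with 82 tested genes remaining, could not change the 7 higher and 6 lower.

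Closely related genes were set side by side in 24 pairs, of which 17 had both members tested. In 9 of the 17 the means had the same sign, in 5 exactly 1 member passed the test, and in 0 both did, at adjusted p-values from limma. Of all loci 13.3% passed the same test. The called members of those 5 pairs were HB-12, HAT22, ATML1, KNAT1 and RLT2. HB-7 minus HB-12 was 0.08 ± 0.48, so these relatives had like means although only HB-12 passed. HB6 minus HB16 was 0.91 ± 0.63. WOX7, in the pair with WOX5, was at background in tdt-1, so no difference is given for that pair. None of the differences was tested, and a call in 1 member of a pair does not show that the members differ.

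**Figure D5:**
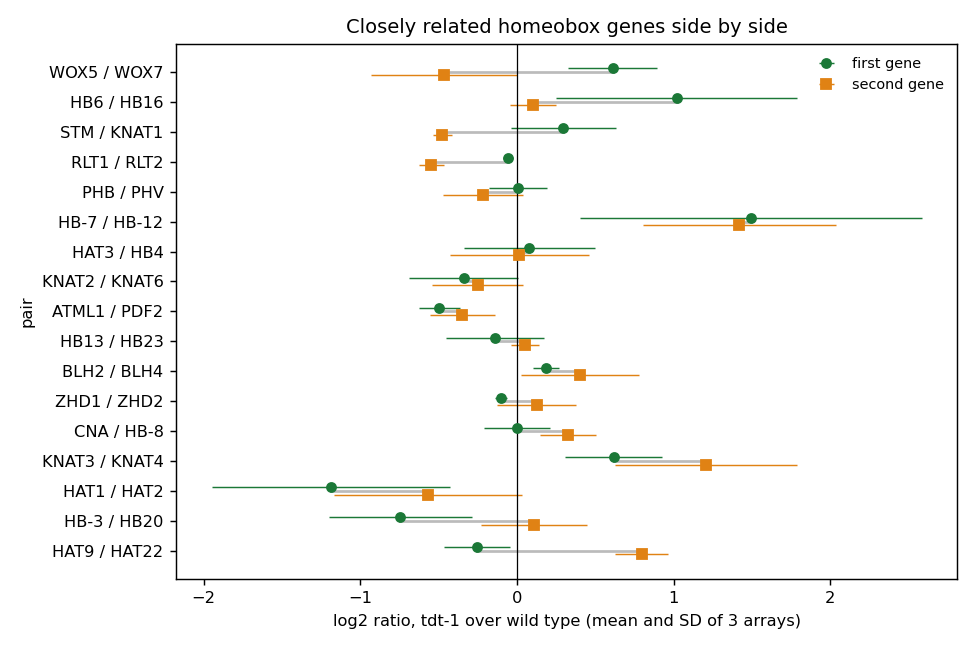
Mean log2 ratio of tdt-1 over wild type (horizontal axis) with SD bars over 3 arrays for the 17 pairs of related homeobox genes with both members tested, the first gene as a circle and the second as a square. The WOX7 value has tdt-1 at background. HAT9 and HAT22 lie on opposite sides of 0 at −0.25 and 0.80, while HB-7 and HB-12 lie together at 1.49 and 1.42.

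The 17 homeobox loci that were not tested comprised 6 WOX and 5 class IV HD-Zip genes (HDG3, HDG4, HDG9, HDG10 and HDG11), HB21, BLH11, ZHD12, MIF2, AT5G07260 and AT5G46010. Of these, AT5G46010 was below background on every array in both genotypes. No direction is given for the 17.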

How the data were processed

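The deposited scanner files hold linear spot intensities (mean signal and median local background of both channels), made with Agilent Feature Extraction 8.5.1.1 for replicates 1 and 2 and 9.1.3.1 for replicate 3, per the file headers. Per the file headers, the software's own dye-normalized log10 ratio (Cy5 over Cy3) is included, and the deposited series table holds log2 ratios that matched it at slope 1 once replicate 3 was turned, with a median of 0 on each array. The 0 or 1 flags for spots above background, saturated or non-uniform are the software's. The flag's multiplier was 2.6 on replicates 1 and 2 and 13 on replicate 3, per the file headers. Of all spots, 65.2% to 69.4% were well above background in tdt-1 and 69.4% to 79.7% in wild type.

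From the intensities, limma 3.58.1 (R 4.3.3) corrected background by normexp with an offset of 50 and normalized by loess within each array, which sets the bulk of ratios to 0 and shrinks those of dim spots. The sign was turned on replicate 3, non-uniform spots (16, 11 and 81 on replicates 1 to 3) were dropped and spots of 1 probe averaged. Loci with tdt-1 or wild type well above background on all arrays were tested, 20484 in all, the brightest probe standing for a locus, with lmFit and eBayes on the ratio and Benjamini-Hochberg adjustment. Levels came from between-array quantile normalization of the mean intensity (Aquantile) and are not compared between genes. The fit was tested on simulated data. Alternatives covered background, normalization, filters, probe choice, array weights, a dye term, the model of the variance and each array left out.

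The members, classes, related pairs, partner lists and markers were chosen with earlier results of these data known, and classes were assigned by locus. Named by rule were each called gene, the highest and lowest mean of each class, and the 2 genes on either side of the threshold. So were genes whose replicate 3 opposed replicates 1 and 2 by over 1, and partner genes past the test or with the 2 smallest p of a list. Other members were added to their classes, though ZF-HD genes and loci outside the named classes are not all given values. HB-3, HB6 and the pair differences printed were chosen after their values were seen. All 102 locus codes were found in the reference table (TAIR10.1, used for names). AT1G27050 is described in the files as a homeobox-leucine zipper gene, while that table has ATHB54 as the symbol of the neighbouring AT1G27045 and as a synonym of AT1G27050, so it is kept by its code. No label or header names the genome build of the probe positions, so no coordinates are printed, and probe, promoter and protein sequences and promoter motifs were not analysed here.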

Additional observations from a re-analysis of the deposited data

How the results depend on the processing

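Counts are given as homeobox genes higher and lower in tdt-1, then all loci higher and lower. Without background correction there were 4 and 3, then 1034 and 857, with 7 of the 13 calls kept. Median centring gave 0 and 0, then 1 and 0, with 17 homeobox genes and 3635 loci at an unadjusted p under 0.05, and a variance fitted with trend and robust settings gave 0 and 0, then 0 and 0, with 37 and 7318. Averaging replicates 1 and 2 gave 0 and 0, then 24 and 19. A dye term, which is also a term for the array layout of replicate 3 and rests on the spread between replicates 1 and 2, gave 30 and 31, then 6941 and 6260, and array weights, of 1.27, 7.40 and 0.11 for replicates 1, 2 and 3, gave 39 and 27, then 8170 and 6710. Leaving out 1 replicate at a time gave 0 to 33 and 0 to 20 homeobox genes, and 66 to 7002 and 45 to 5463 loci, the lowest of these for all loci without replicate 2 and the highest without replicate 3. The cause of these shifts was not tested. HDG8 turned to 0.22 with array weights, and leaving out 1 replicate gave −0.30 to 0.25, above 0 without replicate 3. With median centring the ratios of ATML1, KNAT1, ZHD8 and RLT2 were −0.18, −0.27, −0.20 and −0.32, and with the scanner log ratio those of FWA and OFP12 were 2.39 and 1.17. The median of the homeobox genes stayed between −0.05 and 0.10 over all settings run. CLV1, OFP12 and OFP16 lost their calls with median centring, the robust trended variance and replicates 1 and 2 averaged, and CLV1 and OFP12 also without replicate 1 and without replicate 2. The main fit was itself paired, because each array holds both genotypes and the ratio pairs them, so no separate replicate number is left to block on. With 3 arrays, limma on simulated data called 11 of 50 genes raised by 1 on the log2 scale and 45 of 50 raised by 2. Smaller differences were thus often missed in the simulation. Its arrays were independent and far fewer loci were changed than the 2730 called here, so these shares need not hold for the real arrays.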

Other observations

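Another 15 genes of the same classes have descriptions without the word homeobox and so fall outside the 102. Of 14 on the array 13 were tested. Limma called 0 of them, against 13.3% of all loci, with 1 at an unadjusted p under 0.05, against 35.1%. That gene was WUS, which maintains shoot stem cells, with levels of 6.48, 7.07 and 6.64 in tdt-1, against 5.97, 6.17 and 6.31 in wild type. Wild type was well above background on 1 array, so WUS entered the test through tdt-1 and its difference helped to select it. Its ratios were 0.51, 0.89 and 0.33 (adjusted p = 0.070). ANL2, a class IV gene of anthocyanin and root development, stood at −0.34 ± 0.29 (adjusted p = 0.180). The BEL gene RPL had −0.02, 0.05 and −0.97, and BLH8 had −0.22, −0.10 and −1.24, both with replicate 3 far below the other arrays. PRHA, a homeodomain gene with a zinc finger, had 0.39, 0.38 and 0.02.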
